A study of Mus musculus with 8 samples.

Results

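The 42 genes described here encode the proteins that carry glucose into the cell, break it down to pyruvate and lactate, pass pyruvate to the mitochondrion, store glycogen and sense low oxygen. They are a fixed list of symbols, and all 42 were found among the 53465 Ensembl gene identifiers of the gene table. Each of the 42 also passed the filter on low counts that left 15580 genes for testing. Poly(A) RNA was sequenced from the ventricles of mouse embryos at E15.5, in 4 Nrg1GOF and 4 wild-type (WT) libraries, each from the ventricles of 1 embryo. Nrg1GOF embryos carried an *Nrg1* transgene at the Rosa26 locus together with a Cre, which the labels write Nkx5.5-Cre and the study's methods Nkx2.5Cre, and WT embryos are labelled only as WT. The driver limits the model to cells of the Nkx2.5 lineage and their secreted ligand, and the labels do not say whether the WT embryos carried either allele alone. Nothing in the labels gives litter, sex or batch, so p values measure the spread between these libraries. The comparison asks which genes of glucose metabolism differ when neuregulin-1, a ligand of ErbB receptors, is overproduced in the developing ventricle.

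In glycolysis, glucose is phosphorylated, split and oxidised to pyruvate in the cytosol, and several steps are served by alternative enzymes from separate genes. Pyruvate is then either reduced to lactate, which leaves the cell through monocarboxylate transporters, or enters the mitochondrion, where the pyruvate dehydrogenase complex converts it to acetyl-CoA unless pyruvate dehydrogenase kinases switch the complex off. The fetal heart lives at low oxygen and draws much of its energy from glucose and lactate, and the hypoxia-inducible factor HIF-1 activates many genes of this route.

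Library totals ran from 8038641 to 26786039 counts, and Nrg1GOF library 4 was the shallowest. Its smallest detectable level, taken as 3 counts, was 0.373 counts-per-million (CPM), against 0.112 to 0.160 CPM in the other 7 libraries, and these floors cover counting error only. The 42 genes together held 1.59% to 1.84% of the counts of a library. The genotype labels were matched by *Nrg1* itself, which averaged 61.8 ± 1.90 CPM (SD, n = 4) in Nrg1GOF where WT averaged 4.03 ± 0.652 CPM (SD, n = 4). *Hey2*, a transcription factor gene of compact myocardium, averaged 52.9 ± 1.37 CPM and 187 ± 8.81 CPM in the same order. WT libraries 1 and 2 stood apart from WT libraries 3 and 4 on the second principal component, at 30.11 and 26.83 against -19.03 and -18.83. Nrg1GOF library 3 lay near WT libraries 3 and 4 there, at -26.65, and the other Nrg1GOF libraries lay between -3.39 and 8.79. The WT pairs also differed on the first component, which separated the genotypes. Where a call among the 42 genes held against only 1 of these WT pairs, the adjusted p against each pair is given. The summed level of 7 red cell genes was 12143 and 12977 CPM in WT libraries 1 and 2, and 4383 and 5457 CPM in WT libraries 3 and 4.

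Glucose-route genes moved in both directions by small amounts. Of the 42 genes, 23 were called, that is, had an adjusted p under 0.05 in the quasi-likelihood F-test of edgeR: 9 were higher in Nrg1GOF and 14 were lower. This is 54.8% of the list, and over all 15580 tested genes 28.7% were called, 15.9% higher and 12.8% lower. The count depended on single libraries: without Nrg1GOF library 2 or without WT library 4 it was 14 of the 42, 5 higher and 9 lower, against 3239 and 3506 called over all tested genes. With the WT libraries summed in pairs it was 12, against 2464. The groups did not overlap for 20 of the 42 genes, 7 higher and 13 lower, and over all tested genes the share without overlap was 30.7%. Log2 fold changes ran from -0.95 for *Pdk4* to 0.49 for *Pfkfb3*, with 39 of the 42 under 0.5 in size. Their median was -0.13, against -0.01 over all tested genes, and it was -0.08 without Nrg1GOF library 3, against WT libraries 1 and 2 alone and under scaling by library total. In tissue of mixed cells, fewer cells of a type and less RNA per cell cannot be told apart, and this holds for every gene that follows.

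**Figure D1:**
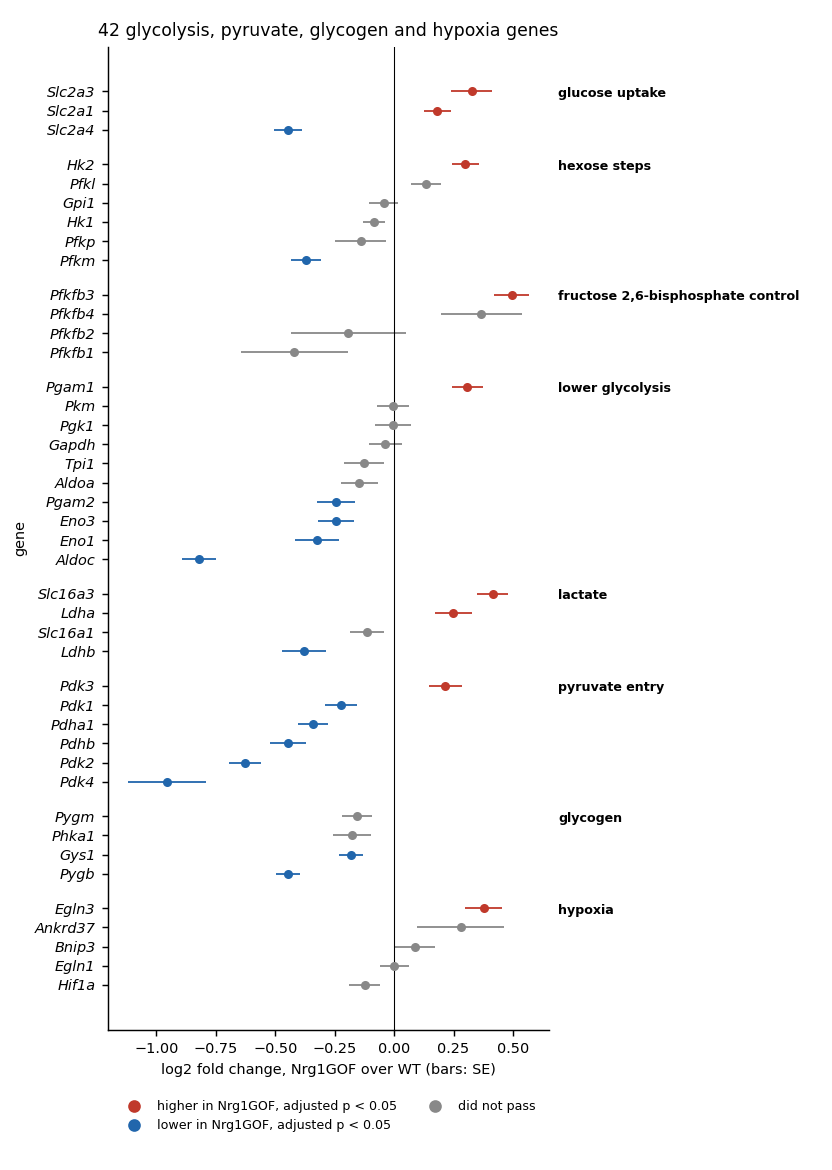
The log2 fold change of each of the 42 genes is plotted on the horizontal axis with its SE, grouped by role. Genes of pyruvate entry other than *Pdk3* lie to the left of 0, and each of the 2 largest decreases, *Pdk4* at -0.95 and *Aldoc* at -0.82, exceeds the largest increase, *Pfkfb3* at 0.49, with *Pdk4* smaller than *Aldoc* against WT libraries 1 and 2 alone, at -0.62.

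The 3 glucose transporters were all called, beside 28.7% of all tested genes, and they split. *Slc2a1* encodes GLUT1, the transporter found in most fetal tissues. Its 4 Nrg1GOF libraries, in order of their numbers, read 148, 156, 147 and 170.3 CPM, and its 4 WT libraries read 139.6, 132, 137 and 138 CPM (log2 fold change 0.18, SE 0.057, edgeR adjusted p = 0.0390). The 4 Nrg1GOF values all lay above the WT values. *Slc2a3* encodes GLUT3, a transporter of high affinity. Its levels were 30.9, 30.6, 26.3 and 25.6 CPM in Nrg1GOF and 21.4, 23.5, 24.7 and 21.2 CPM in WT (log2 fold change 0.33, SE 0.086, edgeR adjusted p = 0.0175), again without overlap, though Nrg1GOF libraries 3 and 4 came close to WT library 3. *Slc2a4* encodes GLUT4, the insulin-responsive transporter of muscle and fat. Here the Nrg1GOF libraries were lower, at 41.2, 37.7, 43.3 and 42.1 CPM against 54.9, 54.0, 59.2 and 55.4 CPM in WT (log2 fold change -0.45, SE 0.059, edgeR adjusted p = 0.000477). The gap between the lowest WT and the highest Nrg1GOF library was wider than the range within either group. Per length of transcript, which is the scale that allows genes to be compared, *Slc2a4* held 35.2% ± 0.714 of the summed level of the 3 genes in WT and 25.9% ± 1.72 in Nrg1GOF, and *Slc2a1* went from 57.0% ± 1.15 to 64.4% ± 1.94. The call of *Slc2a1* was lost in 11 of 20 alternative settings and that of *Slc2a3* in 6, whereas that of *Slc2a4* was kept in all 20, counted apart from the minimum log2 fold change of 0.5 tried for the counts of calls. For *Slc2a1* the losses included leaving out Nrg1GOF library 2 or 4 or WT library 1, 2, 3 or 4 (edgeR adjusted p = 0.0581 to 0.0967), and for *Slc2a3* leaving out Nrg1GOF library 1 or 2 or WT library 4 (edgeR adjusted p = 0.0534 to 0.0643).

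At the hexose steps, one hexokinase rose and one phosphofructokinase fell. Hexokinases trap glucose in the cell as glucose 6-phosphate. *Hk2*, the inducible form of muscle, was at 153, 148, 134 and 155 CPM in Nrg1GOF and 123, 119, 118 and 119 CPM in WT (log2 fold change 0.30, SE 0.056, edgeR adjusted p = 0.00340). The WT libraries were tightly grouped and every Nrg1GOF library exceeded them. *Hk1*, the housekeeping form, was not called (log2 fold change -0.08, SE 0.046, edgeR adjusted p = 0.214) and remained the more abundant gene, so that *Hk2* made up 15.7% ± 0.277 of the per-length level of the pair in WT and 19.5% ± 0.715 in Nrg1GOF. Phosphofructokinase commits hexose to glycolysis, and its muscle form *Pfkm* measured 237, 233, 221 and 259.5 CPM in Nrg1GOF and 309, 286, 325 and 310.3 CPM in WT (log2 fold change -0.37, SE 0.063, edgeR adjusted p = 0.00185). No Nrg1GOF library reached the lowest WT library. The liver form *Pfkl* had a log2 fold change of 0.13 and the platelet form *Pfkp* one of -0.14, and neither was called, though *Pfkl* passed under scaling by library total (edgeR adjusted p = 0.0488). For *Pfkp* the WT libraries themselves were divided, with 294, 302, 399.8 and 394 CPM, and the log2 fold change was 0.08 against WT libraries 1 and 2 and -0.32 against WT libraries 3 and 4, where the edgeR adjusted p was 0.0123. *Pfkl*, *Pfkm* and *Pfkp* held 28.1% ± 1.37, 37.2% ± 1.81 and 34.8% ± 3.02 of the per-length level of the family in WT. In Nrg1GOF the shares of *Pfkl* and *Pfkm* were 33.7% ± 1.39 and 31.5% ± 1.23, and both were without overlap between the groups. *Gpi1*, which interconverts glucose 6-phosphate and fructose 6-phosphate, had a log2 fold change of -0.04 and was not called.

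The bifunctional Pfkfb enzymes set the level of fructose 2,6-bisphosphate, the strongest activator of phosphofructokinase. *Pfkfb3*, the form with the highest kinase activity, rose more than any other of the 42 genes, at 38.8, 37.8, 38.0 and 34.8 CPM in Nrg1GOF and 24.1, 25.1, 29.2 and 27.9 CPM in WT (log2 fold change 0.49, SE 0.073, edgeR adjusted p = 0.000935). All Nrg1GOF libraries were above all WT libraries. The size of the increase depended on the WT libraries used, at 0.61 against WT libraries 1 and 2 and 0.40 against WT libraries 3 and 4, and it was called in both. Against WT libraries 3 and 4 the log2 fold change of *Slc16a3* was also 0.40, so the rank of *Pfkfb3* did not hold there. *Pfkfb1*, *Pfkfb2* and *Pfkfb4* were scarce, with WT means of 3.36, 15.4 and 3.07 CPM, and none was called at log2 fold changes of -0.42, -0.19 and 0.37. That of *Pfkfb2* rested on single libraries, ranging from -0.06 without Nrg1GOF library 4 or WT library 3 to -0.46 without Nrg1GOF library 3, and was 0.13 against WT libraries 1 and 2 alone. *Pfkfb3* contributed 55.5% ± 2.66 of the per-length level of the 4 genes in WT and 67.0% ± 5.85 in Nrg1GOF.

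**Figure D2:**
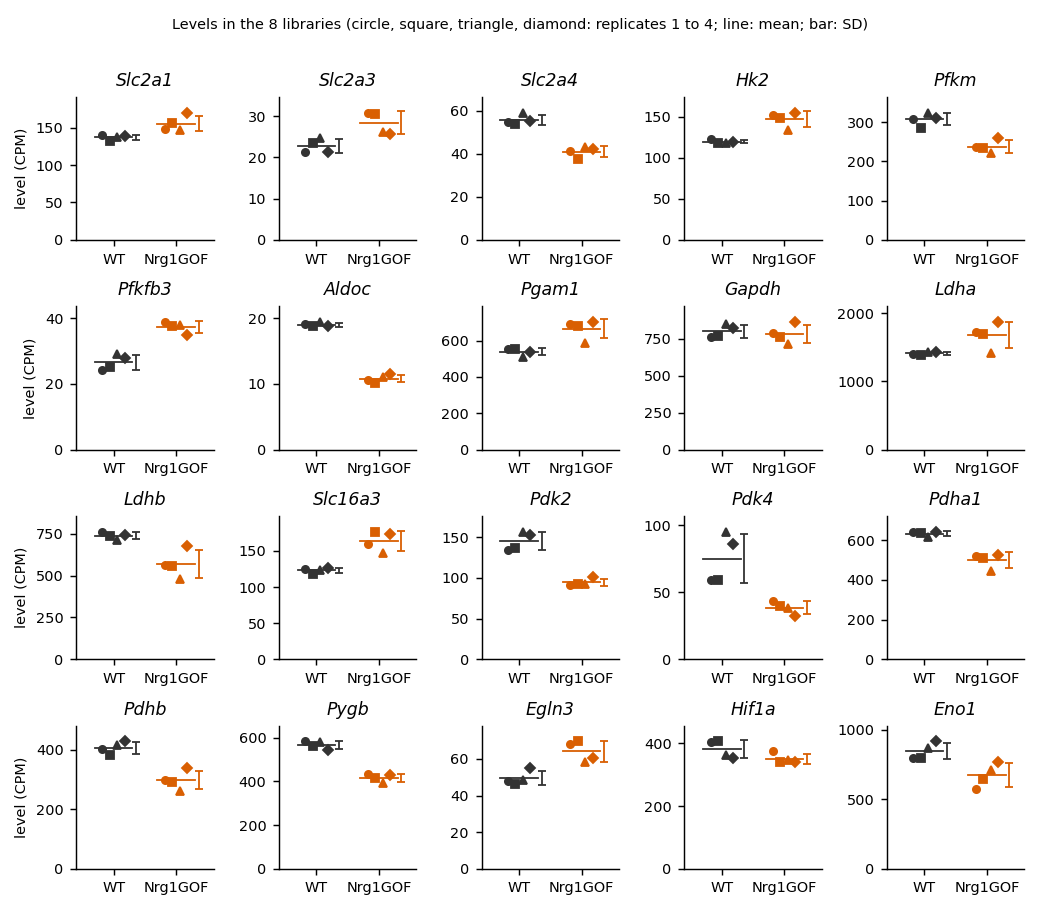
Each panel gives the level of 1 gene in CPM in the 4 WT (dark) and 4 Nrg1GOF (orange) libraries, with the group mean as a line and the SD as a bar on an axis that starts at 0. The groups are separate for the transporters, *Hk2*, *Pfkm*, *Pfkfb3*, *Aldoc* and the pyruvate dehydrogenase genes, and they overlap for *Gapdh*, *Hif1a* and *Ldha*.

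Lower glycolysis, from the splitting of fructose 1,6-bisphosphate to pyruvate, holds 10 of the genes, of which 1 was called higher and 4 lower, or 50.0% beside 28.7% over all tested genes. *Aldoc*, the brain form of aldolase, had the second largest decrease of the list, at 10.6, 10.1, 11.0 and 11.5 CPM in Nrg1GOF and 19.1, 18.8, 19.4 and 18.8 CPM in WT (log2 fold change -0.82, SE 0.071, edgeR adjusted p = 5.84e-05). Both groups were tight and far apart. It was however a trace of the aldolase message, since *Aldoa* provided 99.3% to 99.6% of the per-length level of the pair, and *Aldoa* itself was not called (log2 fold change -0.15, SE 0.079, edgeR adjusted p = 0.204). *Gapdh*, the glyceraldehyde 3-phosphate dehydrogenase gene often used as a reference, measured 786, 759, 715 and 862 CPM in Nrg1GOF and 758, 769, 851 and 824 CPM in WT (log2 fold change -0.04, SE 0.069, edgeR adjusted p = 0.737). The groups overlapped throughout their range. *Tpi1*, *Pgk1* and *Pkm*, which encode triosephosphate isomerase, phosphoglycerate kinase and the pyruvate kinase of muscle and fetal tissue, were not called either, with log2 fold changes of -0.13 for *Tpi1*, -0.01 for *Pgk1* and less than 0.01 in size for *Pkm*. The sign of *Gapdh*, *Pgk1* and *Pkm* turned under scaling by library total. *Pkm* transcripts M1 and M2 are counted together in a gene table, so a shift between them would not be seen.

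Phosphoglycerate mutase and enolase are the 2 steps of lower glycolysis with called genes at an abundant level. *Pgam1*, the general mutase, measured 691, 683, 586 and 701 CPM in Nrg1GOF and 551, 552, 511 and 535 CPM in WT (log2 fold change 0.31, SE 0.066, edgeR adjusted p = 0.00685), and the lowest Nrg1GOF value, that of library 3, still exceeded every WT value. The call was lost against WT libraries 1 and 2 alone (edgeR adjusted p = 0.0667), was kept against WT libraries 3 and 4 alone (0.0177) and was lost with the WT pairs summed. *Pgam2*, the muscle form, had means of 224 ± 26.9 and 265 ± 7.65 CPM (SD, n = 4 each). It was called lower at an edgeR adjusted p of 0.0434, but the groups overlapped and the call was lost in 12 of 20 alternative settings, which include dropping Nrg1GOF library 1, 2 or 3 or WT library 1, 2, 3 or 4 (edgeR adjusted p = 0.0662 to 0.107). The balance of the pair was clearer than either gene, with a *Pgam2* share of 51.0% ± 0.302 in WT and 41.5% ± 2.07 in Nrg1GOF and the highest Nrg1GOF library at 44.1%. *Pgam1* has 1 near-identical copy. *Pgam1* itself took 91.8% to 94.5% of the summed counts, and adding the copy left the log2 fold change at 0.31.

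Enolase needs a caveat that is measured in the table. *Eno1*, the general form, was at 575, 643, 708 and 769 CPM in Nrg1GOF and 797, 797, 865 and 915 CPM in WT (log2 fold change -0.32, SE 0.091, edgeR adjusted p = 0.0235), and the groups did not overlap. The mouse genome also carries *Eno1b*, an intronless copy whose transcript is 99.5% identical, and its level went the other way (log2 fold change 0.37, SE 0.082, edgeR adjusted p = 0.00838), with means of 348 ± 37.9 CPM (SD) for Nrg1GOF and 269.9 ± 16.1 CPM for WT. Reads of 60 bases are shared between such copies by estimate. When *Eno1* and its 4 copies were summed, the means were 1064 ± 56.5 CPM (SD) for Nrg1GOF and 1135 ± 68.5 CPM for WT, with a log2 fold change of -0.09 and an edgeR adjusted p of 0.307, so the call of *Eno1* did not hold for the summed enolase 1 message. It was also lost on leaving out Nrg1GOF library 2 or WT library 3 or 4 (edgeR adjusted p = 0.0588 to 0.0761), and the edgeR adjusted p was 0.157 against WT libraries 1 and 2 alone and 0.0282 against WT libraries 3 and 4 alone. *Eno3*, the muscle form, had a log2 fold change of -0.25 and an edgeR adjusted p of 0.0357, with no overlap between groups, and lost its call in 8 of 20 settings, among them those without Nrg1GOF library 1, 2 or 3 or WT library 1, 2 or 4 (edgeR adjusted p = 0.0545 to 0.0895). Its call held against WT libraries 1 and 2 alone (edgeR adjusted p = 0.0478) and not against WT libraries 3 and 4 alone (0.202). The share of *Eno3* in the pair overlapped between the groups, at 43.1% ± 2.89 in WT and 44.5% ± 3.44 in Nrg1GOF, and the difference of the means changed sign, from 1.39 to -2.46 percentage points, when the copies were counted with *Eno1*.

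The lactate genes gave the plainest change of balance between forms. Lactate dehydrogenase interconverts pyruvate and lactate, and its A subunit is known as the form of glycolytic tissue and its B subunit as the form of the oxidative heart. *Ldha* measured 1729, 1702, 1419.9 and 1869 CPM in Nrg1GOF and 1401, 1393, 1434 and 1425 CPM in WT (log2 fold change 0.25, SE 0.079, edgeR adjusted p = 0.0388). Nrg1GOF library 3 lay inside the WT range while the other 3 lay well above it, and the call was lost in 11 of 20 settings, including those without Nrg1GOF library 1, 2 or 4 or WT library 1, 2, 3 or 4 (edgeR adjusted p = 0.0702 to 0.101). *Ldhb* went the other way, with 563, 559, 479 and 677 CPM in Nrg1GOF and 763, 738, 716 and 746 CPM in WT (log2 fold change -0.38, SE 0.092, edgeR adjusted p = 0.0120), and the groups were separate. This call held against WT libraries 1 and 2 alone (edgeR adjusted p = 0.0467), and was lost against WT libraries 3 and 4 alone (0.0558) and with the WT pairs summed (0.0828). Nrg1GOF library 3 was the lowest of its group for both subunits, and its share of *Ldhb* lay within the range of the other 3. *Ldhb* made up 28.4%, 28.6%, 29.1% and 30.6% of the per-length lactate dehydrogenase message in Nrg1GOF libraries 1 to 4 and 39.9%, 39.2%, 37.8% and 38.9% in WT libraries 1 to 4. The means were 39.0% ± 0.861 in WT and 29.2% ± 1.00 in Nrg1GOF (SD, n = 4 each), a difference of -9.78 percentage points, many times the spread within either group.

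*Slc16a3* encodes MCT4, the transporter that exports lactate from glycolytic cells. It was at 160.0, 177, 147 and 173 CPM in Nrg1GOF and 125, 117, 124 and 126 CPM in WT (log2 fold change 0.41, SE 0.065, edgeR adjusted p = 0.00129), without overlap, and kept its call in all 20 alternative settings. *Slc16a1*, which encodes the MCT1 transporter used for uptake as well as release, was not called at a log2 fold change of -0.11. The per-length share of *Slc16a3* in the pair went from 51.6% ± 0.733 to 60.6% ± 1.57. *Bsg*, whose product basigin carries both transporters to the cell surface and which was named after its values were seen, was higher in Nrg1GOF (log2 fold change 0.34, SE 0.074, edgeR adjusted p = 0.00721).

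**Figure D3:**
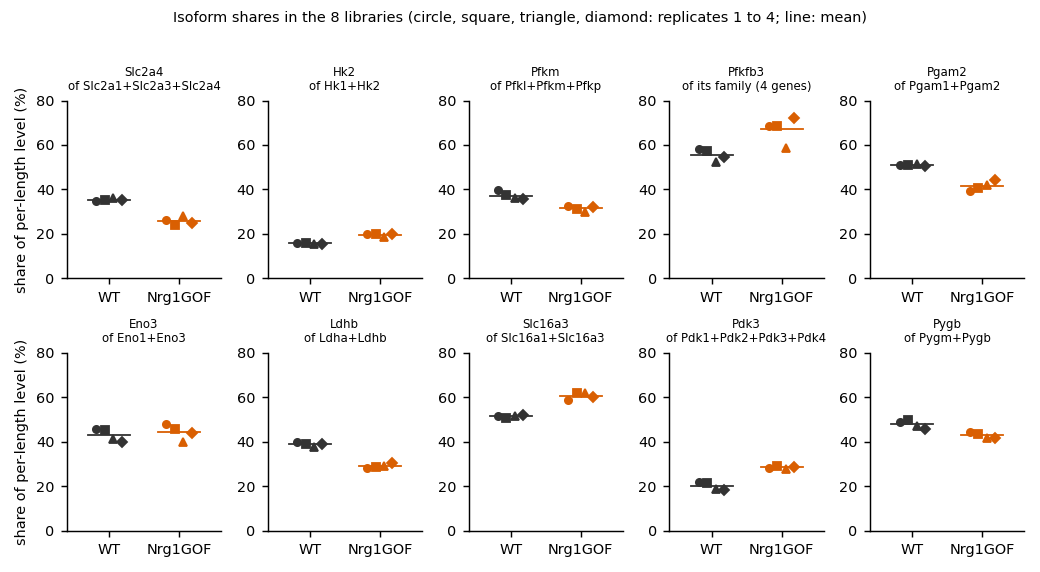
Each panel shows the share, in percent, that 1 gene held of the per-length level of its family in each WT (dark) and Nrg1GOF (orange) library, with the group mean as a line. The groups are separate in every panel except that of *Eno3*, and *Ldhb* falls from about 39.0% to 29.2% with little spread in either group.

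The shares were computed for the families of transporters and metabolic enzymes with more than 1 form on the list, and not for *Egln1* and *Egln3*, as a description and with no test. Besides the shares given with each gene, that of *Pygm* in the phosphorylase pair went from 52.1% ± 1.90 to 57.1% ± 1.29 and that of *Aldoa* in the aldolase pair from 99.3% ± 0.0318 to 99.6% ± 0.0435, both without overlap. Taking plain counts in place of per-length levels kept the direction of each share except that of *Pfkp*, which overlapped between the groups and whose difference went from 0.083 to -0.45 percentage points.

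All 6 genes of pyruvate entry were called, 5 lower and 1 higher, where 12.8% of all tested genes were lower and 15.9% higher. *Pdha1* and *Pdhb* encode the alpha and beta subunits of the first enzyme of the pyruvate dehydrogenase complex. *Pdha1* measured 522, 509, 442 and 526 CPM in Nrg1GOF and 639, 637, 614 and 643 CPM in WT (log2 fold change -0.34, SE 0.063, edgeR adjusted p = 0.00305). For *Pdhb* the levels were 299.9, 293, 263 and 339.5 and 401, 382, 416 and 429 CPM (log2 fold change -0.45, SE 0.078, edgeR adjusted p = 0.00217). The groups were separate for both, with Nrg1GOF library 3 the lowest of the 8, and both calls were kept in all 20 settings. The other parts of the complex, which are not among the 42 genes and are named here after their values were seen, were lower as well. *Dld* encodes its dihydrolipoyl dehydrogenase (log2 fold change -0.50, SE 0.061, edgeR adjusted p = 0.000290), *Dlat* its acetyltransferase (log2 fold change -0.33, SE 0.057, edgeR adjusted p = 0.00219) and *Pdhx* its binding protein (log2 fold change -0.28, SE 0.072, edgeR adjusted p = 0.0167). Of the phosphatases that activate the complex, *Pdp1* was also lower (log2 fold change -0.48, SE 0.059, edgeR adjusted p = 0.000344) and *Pdp2* was not called (log2 fold change under 0.01 in size, edgeR adjusted p = 0.984). *Mpc2*, which encodes one subunit of the mitochondrial pyruvate carrier, was lower (log2 fold change -0.39, SE 0.095, edgeR adjusted p = 0.0126), and *Mpc1*, which encodes the other, was not called (log2 fold change -0.05, SE 0.075, edgeR adjusted p = 0.644).

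Pyruvate dehydrogenase kinases phosphorylate the complex and switch it off, and 3 of their 4 genes were lower. *Pdk4*, the form that rises with fasting and fatty acid use, had the largest decrease of the list, with 43.6, 40.0, 38.1 and 32.3 CPM in Nrg1GOF and 59.3, 59.3, 95.1 and 86.3 CPM in WT (log2 fold change -0.95, SE 0.16, edgeR adjusted p = 0.00201). The groups did not overlap, but the WT libraries fell into their 2 pairs, and the log2 fold change was -0.62 against WT libraries 1 and 2 and -1.22 against WT libraries 3 and 4. Both were called. Against WT libraries 1 and 2 alone the largest decrease was that of *Aldoc*, at -0.82. *Pdk2*, a form abundant in heart, was at 91.4, 92.7, 91.9 and 101 CPM in Nrg1GOF and 134, 137, 157 and 153 CPM in WT (log2 fold change -0.63, SE 0.066, edgeR adjusted p = 0.000135). Every Nrg1GOF library was below every WT library. *Pdk1*, a HIF-1 target, had the highest per-length level of the 4 genes and was lower by 0.22 on the log2 scale (edgeR adjusted p = 0.0329), a call lost in 9 of 20 settings, including those without Nrg1GOF library 2 or WT library 1, 2, 3 or 4 (edgeR adjusted p = 0.0604 to 0.0816). *Pdk3*, the remaining kinase gene and known to respond to hypoxia, was the exception, higher with a log2 fold change of 0.22 (edgeR adjusted p = 0.0418), with overlap between the groups and a call lost in 10 of 20 settings, including those without Nrg1GOF library 1, 2 or 4 or WT library 2, 3 or 4 (edgeR adjusted p = 0.0650 to 0.118). Against WT libraries 1 and 2 alone its edgeR adjusted p was 0.249, and against WT libraries 3 and 4 alone 0.0365. As a share of the 4 kinase genes per length, *Pdk3* took 20.1% ± 1.88 in WT and 28.5% ± 0.706 in Nrg1GOF, *Pdk2* 31.8% ± 1.02 and 25.4% ± 1.60, and *Pdk4* 10.5% ± 2.11 and 6.67% ± 0.896, all without overlap. On plain counts the differences of *Pdk3* and *Pdk2* were smaller, at 5.19 and -4.14 percentage points where the per-length shares gave 8.43 and -6.42.

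Of the 4 glycogen genes, 2 were called and both were lower, where 12.8% of all tested genes were lower. *Pygb*, the brain and fetal form of glycogen phosphorylase, which frees glucose 1-phosphate from glycogen, was at 432, 414, 393 and 427 CPM in Nrg1GOF and 583, 563, 580.2 and 544 CPM in WT (log2 fold change -0.45, SE 0.052, edgeR adjusted p = 0.000237). The spread within each group was small beside the gap between them, and the call was kept in all 20 settings. *Gys1*, the glycogen synthase of muscle, was lower by 0.18 on the log2 scale (edgeR adjusted p = 0.0197) without overlap between groups, a call lost in 6 of 20 settings, including those without Nrg1GOF library 2 or WT library 3 or 4 (edgeR adjusted p = 0.0583 to 0.0623). Its edgeR adjusted p was 0.142 against WT libraries 1 and 2 alone and 0.0417 against WT libraries 3 and 4 alone. *Pygm*, the muscle phosphorylase, and *Phka1*, a regulatory subunit of phosphorylase kinase, had log2 fold changes of -0.16 and -0.18 and were not called, though *Pygm* passed against WT libraries 3 and 4 alone (edgeR adjusted p = 0.0435), without WT library 2 (0.0442) and with DESeq2 (0.0486), and *Phka1* passed without Nrg1GOF library 1 (log2 fold change -0.24, edgeR adjusted p = 0.0370).

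The hypoxia genes on the list gave 1 call in 5, where 28.7% of all tested genes were called. *Hif1a* encodes the oxygen-regulated subunit of HIF-1, which is controlled mainly at the protein level. Its transcript measured 375, 342, 346 and 341 CPM in Nrg1GOF and 406, 406, 364 and 354 CPM in WT (log2 fold change -0.12, SE 0.064, edgeR adjusted p = 0.182). Nrg1GOF library 1 lay among the WT values, and the decrease was seen against WT libraries 1 and 2, at -0.21, and hardly against WT libraries 3 and 4, at -0.03. *Egln3* encodes PHD3, a prolyl hydroxylase that marks HIF subunits for destruction and whose gene HIF itself induces. It was higher, at 68.1, 69.5, 58.2 and 60.4 CPM in Nrg1GOF and 48.2, 46.3, 48.2 and 54.9 CPM in WT (log2 fold change 0.38, SE 0.077, edgeR adjusted p = 0.00531), with a narrow gap between WT library 4 and Nrg1GOF library 3. *Egln1*, which encodes the main oxygen-sensing hydroxylase PHD2, differed by 0.00 on the log2 scale. *Bnip3*, a mitophagy gene induced by hypoxia, and *Ankrd37*, another such target, had log2 fold changes of 0.09 and 0.28 and were not called. Without Nrg1GOF library 3 *Bnip3* passed, at a log2 fold change of 0.18 and an edgeR adjusted p of 0.0477. For *Ankrd37* the value was 0.56 against WT libraries 1 and 2 and 0.06 against WT libraries 3 and 4.

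HIF-1 binds the letters ACGTG or GCGTG, the core of the hypoxia response element, and promoters of genes that moved in either direction are shown for these letters. Promoter sequences were taken from RefSeq on GRCm38 for 40 of the 42 genes. Below are the 250 bases before the start of transcription, written 5′ to 3′ on the strand of the gene. They include the 4 genes called higher in all 20 alternative settings (*Hk2*, *Pfkfb3*, *Slc16a3* and *Egln3*). Those settings leave out the minimum log2 fold change of 0.5, which none of these 4 genes passed. Also shown are the 3 largest decreases among the 8 genes called lower in the same 20 settings (*Pdk4*, *Aldoc* and *Pdk2*). The lactate dehydrogenase pair is added, where the call of *Ldha* was the less stable. Capitals mark ACGTG or GCGTG, or the same letters read on the other strand (CACGT and CACGC), merged where matches overlap. RefSeq lists 2 promoters each for *Pfkfb3*, *Aldoc*, *Pdk2* and *Ldha*, and the one nearest the annotated start of the gene was taken.
*Hk2* (chr6:82774455-82774704, minus strand): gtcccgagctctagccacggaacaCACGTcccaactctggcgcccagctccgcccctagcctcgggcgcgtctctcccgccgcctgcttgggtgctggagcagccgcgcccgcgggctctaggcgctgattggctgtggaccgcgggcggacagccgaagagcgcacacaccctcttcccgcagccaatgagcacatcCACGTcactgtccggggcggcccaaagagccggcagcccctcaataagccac
*Pfkfb3* (chr2:11553930-11554179, minus strand): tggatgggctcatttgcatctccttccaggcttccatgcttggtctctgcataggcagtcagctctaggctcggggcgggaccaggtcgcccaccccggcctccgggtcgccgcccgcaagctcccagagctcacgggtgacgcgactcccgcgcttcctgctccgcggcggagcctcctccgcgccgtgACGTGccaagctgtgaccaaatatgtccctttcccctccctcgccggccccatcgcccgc
*Slc16a3* (chr11:120948817-120949066, plus strand): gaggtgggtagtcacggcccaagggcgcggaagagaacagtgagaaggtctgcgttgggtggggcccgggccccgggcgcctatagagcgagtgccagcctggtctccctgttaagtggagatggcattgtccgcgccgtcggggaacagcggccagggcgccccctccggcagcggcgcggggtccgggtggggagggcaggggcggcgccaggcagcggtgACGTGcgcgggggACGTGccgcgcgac
*Egln3* (chr12:54203875-54204124, minus strand): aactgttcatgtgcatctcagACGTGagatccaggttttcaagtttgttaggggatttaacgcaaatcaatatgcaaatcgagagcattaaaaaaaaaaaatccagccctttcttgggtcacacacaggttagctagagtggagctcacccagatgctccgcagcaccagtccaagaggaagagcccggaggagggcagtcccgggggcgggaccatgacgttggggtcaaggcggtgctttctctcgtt
*Pdk4* (chr6:5496279-5496528, minus strand): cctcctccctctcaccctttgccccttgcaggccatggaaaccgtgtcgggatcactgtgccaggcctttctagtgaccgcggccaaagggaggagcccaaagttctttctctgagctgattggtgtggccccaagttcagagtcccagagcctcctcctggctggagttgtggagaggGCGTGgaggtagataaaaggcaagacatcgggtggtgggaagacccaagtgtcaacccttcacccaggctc
*Aldoc* (chr11:78322823-78323072, plus strand): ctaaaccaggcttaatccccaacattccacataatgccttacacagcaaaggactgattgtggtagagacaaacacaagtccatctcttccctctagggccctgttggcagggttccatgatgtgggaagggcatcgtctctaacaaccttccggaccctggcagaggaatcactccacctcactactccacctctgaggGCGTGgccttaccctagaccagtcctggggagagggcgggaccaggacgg
*Pdk2* (chr11:95041372-95041621, minus strand): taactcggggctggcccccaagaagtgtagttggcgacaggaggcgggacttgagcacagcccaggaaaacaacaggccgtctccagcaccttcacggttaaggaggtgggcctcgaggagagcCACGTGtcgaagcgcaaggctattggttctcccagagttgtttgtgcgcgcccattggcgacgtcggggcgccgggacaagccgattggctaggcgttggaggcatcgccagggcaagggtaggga
*Ldha* (chr7:46845554-46845803, plus strand): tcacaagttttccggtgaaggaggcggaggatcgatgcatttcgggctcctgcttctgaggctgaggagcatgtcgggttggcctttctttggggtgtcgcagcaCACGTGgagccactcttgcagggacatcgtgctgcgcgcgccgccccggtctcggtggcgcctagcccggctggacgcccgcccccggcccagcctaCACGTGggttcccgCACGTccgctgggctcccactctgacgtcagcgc
*Ldhb* (chr6:142507958-142508207, minus strand): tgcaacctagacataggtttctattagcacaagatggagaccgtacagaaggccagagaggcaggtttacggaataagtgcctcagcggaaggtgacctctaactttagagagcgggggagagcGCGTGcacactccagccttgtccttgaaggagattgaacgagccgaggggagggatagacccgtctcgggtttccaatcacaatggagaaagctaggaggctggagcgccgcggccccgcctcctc

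The *Ldha* window holds 3 such stretches, the *Hk2* and *Slc16a3* windows 2 each, and the *Pfkfb3*, *Egln3*, *Pdk4*, *Aldoc*, *Pdk2* and *Ldhb* windows 1 each. Such letters were found in 33 of the 40 promoters (82.5%). They were present in 8 of 8 promoters of genes called higher, 11 of 13 of genes called lower (84.6%) and 14 of 19 of genes not called (73.7%). Over all 32851 promoters of that length in the table the share was 38.6%, and over the 14367 promoters of tested genes it was 54.0%. The median G and C content was 60.8% in the promoters of the list, 52.4% in all promoters and 59.6% in those of tested genes. A match describes the letters only, and it was about as common in promoters of genes that were lower as in the list as a whole.

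The other genes of these pathways were examined in 6 further lists. Among the other genes of glycolysis and glucose uptake, 13 of 22 were tested, with 3 higher and 1 lower, so 30.8% were called where 28.7% were over all tested genes. *Slc2a10*, which encodes the transporter GLUT10, was higher (log2 fold change 0.96, SE 0.13, edgeR adjusted p = 0.000639). *Slc2a12*, which encodes GLUT12, was lower (log2 fold change -0.78, SE 0.17, edgeR adjusted p = 0.00716). *Eno2*, the neuronal enolase, was higher (log2 fold change 0.66, SE 0.18, edgeR adjusted p = 0.0208), with overlap between the groups and a call lost without Nrg1GOF library 2 or 3 or WT library 1 (edgeR adjusted p = 0.0530 to 0.0630). Of the 9 genes not tested, none had a group mean above 0.445 CPM in either genotype, among them *Pklr*, the pyruvate kinase of liver and red cells.

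Genes of pyruvate and of the shuttles that carry cytosolic electrons into the mitochondrion were lower in 11 of 18 cases and higher in 2. The malate-aspartate shuttle genes *Got1*, *Got2*, *Mdh1* and *Mdh2* were lower at log2 fold changes of -0.46, -0.48, -0.35 and -0.38. In the glycerol phosphate shuttle, *Gpd2*, the mitochondrial enzyme, was lower (log2 fold change -0.28, SE 0.065, edgeR adjusted p = 0.00945), and so was *Gpd1l*, a relative of the cytosolic enzyme (log2 fold change -0.41, SE 0.052, edgeR adjusted p = 0.000417). *Gpd1*, the cytosolic enzyme itself, was higher from a low level, averaging 3.19 ± 0.900 CPM (SD) for Nrg1GOF and 1.75 ± 0.269 CPM for WT (log2 fold change 0.82, SE 0.23, edgeR adjusted p = 0.0229), a call lost without WT library 2 or 4 (edgeR adjusted p = 0.0551 to 0.0655). The 72.2% called in this list compares with 28.7% over all tested genes.

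The 19 tested glycogen genes held 3 that were higher and 4 that were lower, or 36.8% called beside 28.7% over all tested genes. *Gbe1*, the branching enzyme, and *Gaa*, the lysosomal enzyme that degrades glycogen, were each higher by 0.62 on the log2 scale, with edgeR adjusted p values of 0.00134 and 9.26e-05. *Ppp1r3b*, which targets protein phosphatase 1 to glycogen, was higher by 0.55 (edgeR adjusted p = 0.000137), while the targeting subunits *Ppp1r3c* and *Ppp1r3d* were lower by 0.39 and 0.44. *Pygl*, the liver phosphorylase, was lower by 0.48. All 3 phosphorylase genes thus had lower means, and 2 of the 3 were called.

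Of the 26 other hypoxia pathway genes, 7 were higher and 2 lower, and 17 were not called, so the share called was 34.6% beside the same 28.7%. *P4ha1*, a collagen prolyl hydroxylase, was higher (log2 fold change 0.81, SE 0.061, edgeR adjusted p = 2.58e-05), and *Adm*, which encodes adrenomedullin, was higher with overlap (log2 fold change 0.55, SE 0.17, edgeR adjusted p = 0.0349). The call of *Adm* was lost without Nrg1GOF library 1, 2 or 4 or WT library 2, 3 or 4 (edgeR adjusted p = 0.0533 to 0.113). *P4ha1* is also a gene of matrix-producing cells. In the pentose phosphate pathway, which branches from glucose 6-phosphate, 2 of 7 genes were higher, *G6pdx* by 0.29 and *Tkt* by 0.25, and none was lower, a share of 28.6% that is that of all tested genes. For *G6pdx* the call was lost without Nrg1GOF library 1, 2 or 3 or WT library 3 or 4 (edgeR adjusted p = 0.0578 to 0.0774). Of the 5 glucose-sensing genes, *Txnip*, an inhibitor of glucose uptake that is induced by glucose, was lower by 0.26 (edgeR adjusted p = 0.0316) and *Mlx*, which encodes the partner of the sensor proteins, was higher by 0.23 (edgeR adjusted p = 0.0204). Both calls were lost on leaving out single libraries, that of *Txnip* without Nrg1GOF library 1, 2 or 3 or WT library 3 or 4 (edgeR adjusted p = 0.0547 to 0.0998) and that of *Mlx* without WT library 1, 2, 3 or 4 (edgeR adjusted p = 0.0508 to 0.0562).

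**Figure D4:**
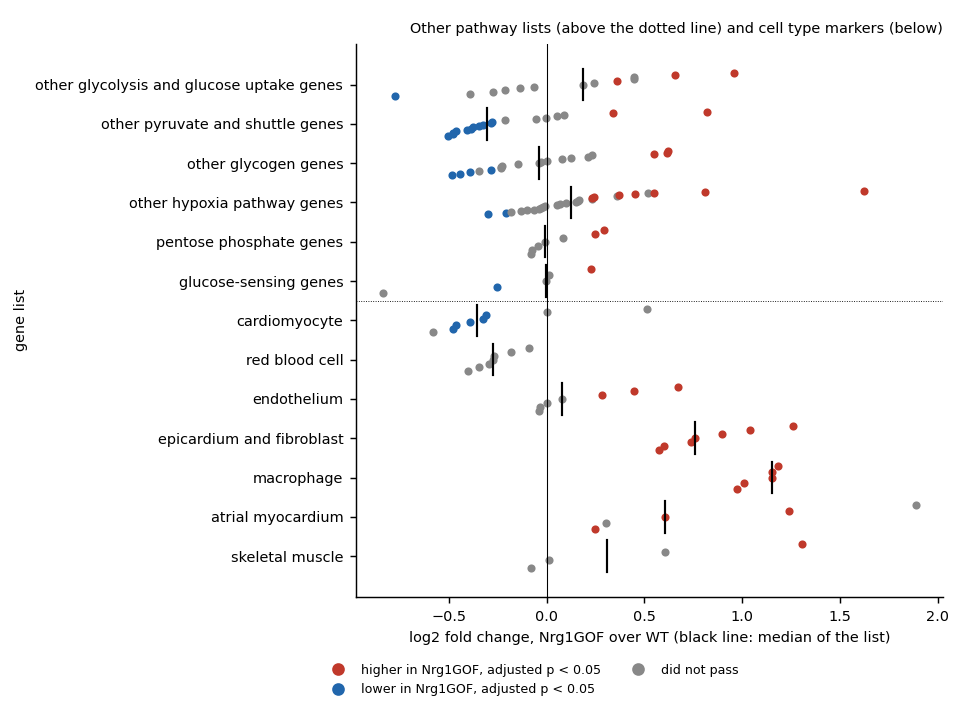
Every point is the log2 fold change of 1 tested gene in the other pathway lists and in the cell type marker lists, with the median of each list as a black line. The list of pyruvate and shuttle genes has its median at -0.31. The cardiomyocyte markers have theirs at -0.36, with single markers from -0.58 to 0.51. All epicardial, fibroblast and macrophage markers lie to the right of 0.

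Markers of several cell types in the ventricle moved with the genotype, beside the genes above. The counts of calls that follow stand beside 28.7% called over all tested genes, 15.9% higher and 12.8% lower. Of 8 cardiomyocyte markers, 5 were called lower and none was called higher, and their summed level was 35200 to 40983 CPM in Nrg1GOF and 44176 to 46836 CPM in WT. The fall was not shared by all 8. *Myh6* had a log2 fold change of 0.51 (SE 0.21, edgeR adjusted p = 0.105), and *Actc1* differed by 0.00. In WT library 2, which had the highest sum, *Ttn* read 5295 CPM, against 1730 to 2517 CPM in the other WT libraries. The defining gene *Tnnt2* averaged 4191 ± 438 CPM (SD) for Nrg1GOF and 5249 ± 440.5 CPM for WT, so the labelled tissue carries its muscle markers in both groups. All 7 markers of epicardium and fibroblasts were higher, with sums of 5601 to 7275 CPM in Nrg1GOF and 3118 to 4214 CPM in WT. All 5 macrophage markers were higher, with sums of 76.0 to 86.7 CPM and 34.8 to 41.9 CPM. Of 7 endothelial markers 3 were higher, with sums of 1124 to 1201 CPM and 1057 to 1096 CPM, and of 5 atrial markers 3 were higher, with sums of 1585 to 1757 CPM and 988 to 1101 CPM. None of the 7 red cell markers was called. Skeletal muscle markers summed to at most 7.62 CPM in any library, with *Myod1* at 0 in all 8. The part of these shifts in the changes of *Slc2a4*, *Pfkm*, *Ldhb*, *Pdha1*, *Pdhb* and the other genes was not tested. Genes of the mitochondrial genome took 3.10% to 4.35% of the counts of Nrg1GOF libraries and 4.30% to 5.78% of those of WT libraries.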

How the data were processed

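What the authors deposited are expected counts from RSEM, gene by gene, for 8 libraries, in a table whose name gives GRCm38 and Ensembl release 91. The submitters' processing notes name cutadapt and RSEM 1.3.1, and the aligner and the strand setting are not given in the sources used here. Because RSEM divides ambiguous reads among genes by estimated abundance, 8.42% to 13.2% of the values in a library are fractional. They were rounded here, and had not been scaled for depth or length. Every row named a gene. Of 53465 identifiers, 53360 were given a symbol from GENCODE M21 and a gene name table.

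Genes passing filterByExpr were scaled with TMM (trimmed mean of M-values) factors and compared between genotypes with the two-sided quasi-likelihood F-test of edgeR 4.0.16 (R 4.3.3), with genotype as the only term, as in the study's choice of a generalised linear model of edgeR. Benjamini-Hochberg adjustment ran over the 15580 genes tested, and genes were called at an adjusted p under 0.05. CPM are on the TMM-scaled library size. The SE was obtained as the size of the log2 fold change over the square root of the F statistic. Per-length levels are CPM divided by the median length of the coding transcripts of a gene in GENCODE M21, a later annotation on the same build than the one counted. Shares of a family were computed from them in each library. The fit was tested on simulated data.

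The 42 genes, the pathway lists and the marker lists were chosen with earlier results of these data known. Values in every library are given for called genes of the 42 with an absolute log2 fold change of at least 0.3, and for *Hif1a*, *Gapdh* and *Slc2a1*. Those of *Hk2* and *Ldha*, and the WT values of *Pfkp*, were added after they were seen. From each other pathway list the called genes with the 3 largest absolute log2 fold changes are named, and further ones were named after their values were seen. Some genes that this rule selects are not reported here. The symbol *Aldoa* stands on 2 identifiers, and that with more transcripts was used. Ahsp was not matched, which left 7 of 8 red cell markers. Near-identical copies were found with BLAST+ 2.17.0 with identity of 95% or above across 80% or more of the copy. They number 101, for 10 of the 42 genes. Another gene lies on the opposite strand of 18 of the 42 genes, and the kit was directional.

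The sample titles give both groups the replicate numbers 1 to 4. Deviations from the group means correlated at 0.049 to 0.199 between libraries of the same number, and not every pair was above 0.1, so the numbers were not taken to pair the libraries. The mean was 0.111 for the same number and -0.037 for other numbers. Between the genotypes, libraries 1 and 2 correlated with libraries 1 and 2 at 0.049 to 0.187. For libraries 3 and 4 with libraries 3 and 4 the range was 0.0041 to 0.199. Between libraries 1 and 2 and libraries 3 and 4 it was -0.263 to 0.044. A block by these pairs was not fitted, so the p values do not allow for such a link. Alternatives covered DESeq2 1.42.0, limma-voom (limma 3.58.1), other scalings and filters, a replicate block, each library left out in turn, the WT pairs summed or used alone, thinning to the smallest total, copies added to their gene and a minimum log2 fold change of 0.5. Counting the protein-coding copy *Eno1b* among the copies, and shares with copies added, were chosen after the data were seen. Protein sequences and reads were not used here.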

Additional observations from a re-analysis of the deposited data

Results flagged for a closer look

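A library was marked where its gap to the nearest library of its group exceeded, as a share of the range of the 4, Dixon's 95% critical value. Of 150 groups of 4 examined for the values of single genes and for library totals, 8 were marked, and 7.5 would be at 1 in 20. Among the 42 genes, *Pgam1* was low in Nrg1GOF library 3 (585.9 CPM, the others 683 to 701 CPM, gap 0.838 of the range), and so was *Pdk3* (88.1 CPM, the others 104 to 105 CPM, gap 0.891). Nrg1GOF library 4 was high for *Pdk2* (101 CPM, the others 91.4 to 92.7 CPM, gap 0.869) and for *Pygm* (416 CPM, the others 376 to 381 CPM, gap 0.893). *Hif1a* was high in Nrg1GOF library 1 (375 CPM, the others 341 to 346 CPM, gap 0.860). Outside the list, *Slc2a10* was low in WT library 4 (4.18 CPM, the others 4.57 to 4.59 CPM, gap 0.961) and *Eno1b* was low in WT library 2 (246 CPM, the others 276 to 281 CPM, gap 0.875). The total of Nrg1GOF library 4 was low (8038641 counts, the others 20578081 to 22547833, gap 0.864).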

How the results depend on the processing

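The 42 genes gave 23 calls, and between 14 and 22 when each library in turn was left out, with 5 to 10 higher and 9 to 14 lower. The count was lowest, at 14 (5 higher, 9 lower), without Nrg1GOF library 2 or without WT library 4. With WT libraries 1 and 2 summed and 3 and 4 summed, 12 were called (4 higher, 8 lower), against 2464 of all tested genes (1548 higher, 916 lower) and 19 of the other pathway lists. Against WT libraries 1 and 2 alone, 14 were called with 4 higher, and 1308 of all genes were lower. A minimum log2 fold change of 0.5 left 3 of the 42, 0 higher and 3 lower, 11 of the other lists and 2008 of all genes (1461 higher, 547 lower). The replicate block gave 23 calls, 9 higher and 14 lower, with a median log2 fold change of -0.12, and moved no count by over 1.5 times. Fewer libraries enter the first of these settings, and for the others the cause was not tested. Of the 23 called genes, 12 kept their call in all 20 settings other than that minimum: *Hk2*, *Slc16a3*, *Pfkfb3* and *Egln3*, which were higher, and *Aldoc*, *Slc2a4*, *Pdk4*, *Pdhb*, *Pdha1*, *Pygb*, *Pfkm* and *Pdk2*, which were lower. Of 1420 values recomputed for 71 single genes, 1248 kept direction and side of the threshold, 136 lost their call, 7 gained one and 29 changed sign. The sign changed only for genes that were not called. *Egln1* was at -0.0015 with DESeq2, -0.0019 with no filter, -0.0034 with limma-voom, -0.0010 with the block and -0.025 against WT libraries 3 and 4. Scaling by library total, which moved the median of all genes by 0.04, gave 0.0036 for *Gapdh*, 0.036 for *Pgk1* and 0.037 for *Pkm*. A minimum of 1 CPM in 4 libraries gave 0.0088 for *Pgk1* and 0.0093 for *Pkm*, and thinning gave 0.0011 for *Pkm*. Against WT libraries 1 and 2, *Gpi1* was at 0.022, *Pfkp* at 0.079, *Pfkfb2* at 0.13, *Gapdh* at 0.029, *Pgk1* at 0.016 and *Pkm* at 0.041. Leaving out 1 library moved *Egln1* between -0.028 and 0.051, *Gapdh* between -0.078 and 0.0082, *Pgk1* between -0.051 and 0.071, *Pkm* between -0.045 and 0.040 and *Mpc1* between -0.090 and 0.0086. The scarce genes *Pfkfb1*, *Pfkfb4* and *Ankrd37* had 12 to 125 counts in a library, and the part of depth in their results was not tested.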
